A study of Mus musculus with 4 samples.

Results

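The 4 muscarinic acetylcholine receptor genes Chrm1, Chrm2, Chrm3 and Chrm4 and the cholinesterase genes Ache and Bche were followed by cell class, fibroblast state, region and mouse, as 6 of the 33696 gene features counted. They were selected on measured values, the difference in Chrm3 between lesional fibroblasts of the 2 libraries, so the values of that comparison describe how the genes were picked and support nothing. Nuclei came from mouse brain at 21 days after a photothrombotic injury, in which a dye in the blood is lit through the skull and vessels of the somatosensory cortex close. The study compared control mice with a Cxcl12-cKO genotype that joins floxed Cxcl12 alleles to Col1a2(creER), a tamoxifen-inducible Cre driven by a collagen promoter that is active in fibroblasts and not limited to the brain. Controls were labelled WT, and the methods name mice without Cre or with a single floxed allele among the controls of such crosses without saying which were used here. All mice were adults on a C57BL/6 background, tamoxifen was given repeatedly after injury, and tissue of 1 male and 1 female mouse was pooled in each genotype. Lesional and parenchymal nuclei carried separate tags and were mixed at 75% and 25%, and each genotype gave 1 expression library.

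Acetylcholine acts on muscarinic receptors, which are coupled to G proteins. Chrm1 and Chrm3 encode receptors that signal through Gq and phospholipase C, and Chrm2 and Chrm4 encode receptors that signal through Gi and lower cyclic AMP. Ache encodes acetylcholinesterase, which ends transmission at synapses, and Bche encodes butyrylcholinesterase, a broader esterase that is also made outside neurons. In the cortex muscarinic receptors are known mainly from neurons, with Chrm3 also known from smooth muscle and glands, and the cholinergic axons of the cortex arise largely from the basal forebrain.

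The region of a nucleus rested on its multiplexing tag, an oligonucleotide of 15 bases on a lipid anchor, so the 4 tags are shown because every lesional or parenchymal value below depends on them (5′ to 3′, printed without capitals because the whole tag was matched).
Lesion, labelled control: gttgatctataacag
Parenchyma, labelled control: gcaggaggtatcaat
Lesion, labelled Cxcl12-cKO: gaatcgtgattcttc
Parenchyma, labelled Cxcl12-cKO: acatggtcaacgctg
Among lesional fibroblast-like nuclei with at least 1 Chrm3 unique molecular identifier (UMI, a count of 1 captured transcript), the median was 5855 UMIs of the lesion tag and 114 of the parenchyma tag in the control-labelled library. The medians were 5555 and 135 in the Cxcl12-cKO-labelled library. Since barcodes were assigned to a region by these tags, the lesion tag had to be the higher one. The parenchyma tag made up 2.16% of the pair's UMIs in nuclei with a Chrm3 UMI and 2.46% in those without in the control-labelled library, and 2.62% and 2.70% in the Cxcl12-cKO-labelled library.

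The 4 matrices held 23489 barcodes, of which 21743 nuclei passed the filter, with a median of 2962 and 2975 UMIs per lesional nucleus in the control-labelled and Cxcl12-cKO-labelled libraries and 15915 and 16648 per parenchymal nucleus. Between 1 and 22 barcodes occurred in a matrix of each library, against 3216 to 8608 barcodes in a matrix. The targeted gene went against the labels, since lesional fibroblast-like nuclei held Cxcl12 at 106 CPM (UMIs of a gene scaled to all UMIs of its set) in the control-labelled library and 215 CPM in the Cxcl12-cKO-labelled library. Whether the deleted part of Cxcl12 is the part that was counted is not stated, and the libraries are therefore named by their labels throughout. Col1a1, the collagen gene that marks fibroblasts, was detected in 69.3% and 67.1% of the lesional fibroblast-like nuclei. With 1 library per genotype no test between genotypes was possible. Intervals are 95% intervals, exact Poisson for CPM, conditional exact binomial for ratios and Clopper-Pearson for shares, and cover counting error only.

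Chrm3 was present in lesional fibroblast-like nuclei of both libraries and was 4.56-fold higher in the Cxcl12-cKO-labelled library. The 4140 nuclei labelled control held 1883 Chrm3 UMIs, which was 132 CPM (127 to 139). The 4061 nuclei labelled Cxcl12-cKO held 8801 UMIs, which was 604 CPM (591 to 616), giving a log2 ratio of 2.19 (2.12 to 2.26). Among 16558 genes with at least 20 UMIs over both libraries, 1.84% were at least 2-fold apart with an interval clear of 0, and 1.08% were so on the side of the Cxcl12-cKO-labelled library. Among 14294 genes with at least 50 UMIs Chrm3 stood at place 5, between Gm13067, with 9 and 46 UMIs, and Mmp3, a stromal matrix metalloproteinase gene, with 178 and 786 UMIs (log2 ratio 2.10). The median log2 ratio of those genes was 0.0018.

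Both mice of each genotype showed the same direction, but by different amounts. Their values split the UMIs on which Chrm3 was picked, so the shared direction is no support for the difference. The female mouse labelled control held Chrm3 at 173 CPM and the male mouse at 104 CPM. The female mouse labelled Cxcl12-cKO held it at 373 CPM and the male mouse at 760 CPM. The 2 mice labelled control thus lay below both mice labelled Cxcl12-cKO, with a log2 ratio of 1.11 (1.00 to 1.22) between the females and 2.86 (2.74 to 2.99) between the males. Within the control-labelled library the male lay below the female (log2 ratio -0.73, -0.88 to -0.58), and within the Cxcl12-cKO-labelled library above it (1.03, 0.95 to 1.11). A mouse and its sex cannot be told apart here.

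The difference lay in how many nuclei held Chrm3 and in how many UMIs each held. At least 1 Chrm3 UMI was found in 735 of 4140 nuclei labelled control, or 17.8% (16.6 to 19.0), and in 1498 of 4061 labelled Cxcl12-cKO, or 36.9% (35.4 to 38.4). The difference was 19.1 percentage points (17.2 to 21.0, Newcombe interval). Nuclei with at least 1 UMI held a mean of 2.56 in the control-labelled library and 5.88 in the Cxcl12-cKO-labelled library. At least 10 UMIs were found in 24 and 274 nuclei, and at least 30 in 1 and 37 nuclei. Median depth was alike, at 3063 and 3099 UMIs per nucleus. After each nucleus was thinned to 1000 UMIs, which left out 105 and 94 shallower nuclei, the shares were 8.25% (7.42 to 9.14) and 24.0% (22.7 to 25.4). Lesional myeloid-like nuclei, a class of microglia and macrophages measured in the same libraries, held a Chrm3 UMI in 14.1% (12.5 to 15.8) and 14.8% (13.4 to 16.3) at median depths of 2164 and 2371 UMIs. Their thinned shares were 7.88% and 7.91%, so the thinned share of the fibroblast-like nuclei labelled control was close to the myeloid level and that of the nuclei labelled Cxcl12-cKO was not.

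**Figure D1:**
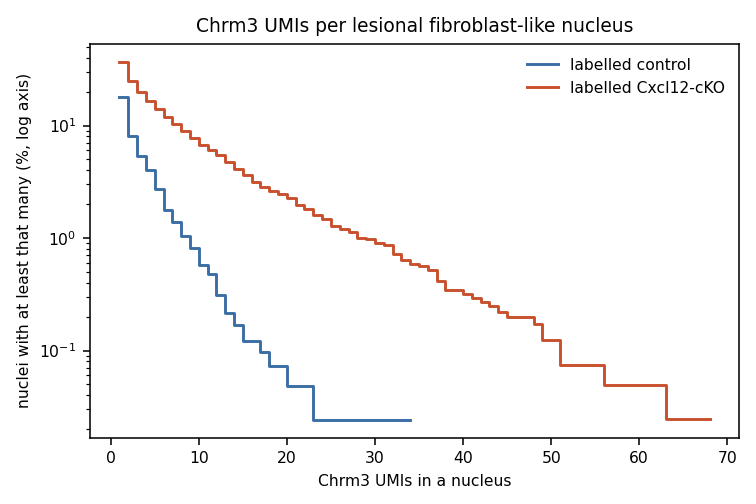
Percentage of lesional fibroblast-like nuclei (log axis) with at least the number of Chrm3 UMIs on the horizontal axis, 1 step line per library. The line labelled Cxcl12-cKO starts at 36.9% and reaches 68 UMIs in 1 nucleus, and the line labelled control starts at 17.8% and reaches 34.

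Neuronal RNA in the fibroblast-like nuclei was measured beside Chrm3, because neurons held far more Chrm3. The 10 excitatory and inhibitory neuron markers summed to 88.3 and 89.0 CPM in the lesional fibroblast-like nuclei of the control-labelled and Cxcl12-cKO-labelled libraries, against 1707 and 1874 CPM in lesional excitatory-neuron-like nuclei. At these shares of neuronal RNA the Chrm3 of the excitatory neurons would amount to 65.9 and 69.3 CPM. The measured level was 132 CPM where 65.9 CPM would come from neurons, and 604 CPM where 69.3 CPM would. Slc17a7, which encodes the vesicular glutamate transporter of cortical excitatory neurons, stood at 181 and 215 UMIs. Nuclei that held transcripts of both sexes, a sign of doublets or free RNA, made up 8.98% of the nuclei with a Chrm3 UMI and 7.81% of those without in the control-labelled library. In the Cxcl12-cKO-labelled library these shares were 13.0% and 8.43%. The nuclei with transcripts of both sexes held Chrm3 at 137 and 770 CPM in the control-labelled and Cxcl12-cKO-labelled libraries. Without them the log2 ratio of Chrm3 stayed within 2.12 to 2.26, its interval over all nuclei. The part of doublets and free RNA beyond these nuclei was not tested.

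Clustering the lesional fibroblast-like nuclei again, with all 6 members left out, gave 4 states. Markers named a pair of them, a late-inner-like state 0 (Fgf13, Cdh18 and Sema3c) and a leptomeningeal-like state 1 (Aldh1a2, Ranbp3l and Slc7a14). State 2, led by Ccn3, Prmt8 and Hs3st1, and state 3, led by Gm30613, Dcdc2a and Prex2, stayed unnamed. The highest list of state 3 was also leptomeningeal, but only 2 of its 4 markers (Aldh1a2 and Lama1) passed. Lama1 stood at 999 CPM in state 3 and 182 CPM in state 1, and Aldh1a2 at 270 and 187 CPM. Ranbp3l (668 and 1496 CPM) and Slc7a14 (11.3 and 60.9 CPM) were higher in state 1, so state 1 is not the only leptomeningeal candidate. Slc47a1, a transporter gene on both the dural and the dural border list, was detected in 80.3% of the nuclei of state 2. Slco4a1, Dnajc5b and Vsx1 of the dural border list were also highest in state 2, at 21.6, 16.8 and 21.7 CPM. They were seen in only 7.32%, 4.68% and 7.11% of its nuclei, below the share required of a naming marker. Cldn11, the remaining dural border marker, was highest in state 1 (191 CPM, against 77.4 CPM in state 2). Of the dural list, Alpl (64.3 CPM) and Foxp1 (4934 CPM) were also highest in state 2. Dpp4 was highest in state 1 (130 CPM) and Mgp in state 0 (377 CPM). At a finer clustering, a state of 1480 nuclei with Ccn3, Hs3st1 and Bche among its leading genes was named dural-border-like. Another of 1572 nuclei, whose highest list was dural (Alpl and Slc47a1 up), stayed unnamed.

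State 2 held most Chrm3 in both libraries. Its level was 255 CPM in the 1332 nuclei labelled control and 1411 CPM in the 1018 labelled Cxcl12-cKO, which on the log2 scale was 2.47 (2.38 to 2.55) higher. It supplied 73.7% and 64.6% of all Chrm3 UMIs of the lesional fibroblast-like nuclei from 38.3% and 27.7% of their UMIs. State 2 was the only state whose Chrm3 in the control-labelled library lay well above the level given by its neuronal RNA, which was 46.9 CPM.

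The leptomeningeal-like state 1 held 53.8 CPM in the control-labelled library, below the 55.1 CPM given by its neuronal RNA. In the Cxcl12-cKO-labelled library it held 555 CPM against 62.6 CPM, and its log2 ratio of 3.36 (3.18 to 3.56) was taken over a level that could be background alone, so it is not ranked against that of state 2. The late-inner-like state 0 held 59.9 and 117 CPM (log2 ratio 0.96, 0.71 to 1.21), beside 119 and 91.3 CPM given by neuronal RNA. State 3 held 57.7 and 80.3 CPM (0.47, 0.03 to 0.93), beside 63.0 and 59.9 CPM. Chrm3 of states 0, 1 and 3 in the control-labelled library therefore lay below this neuronal background and cannot be read as expression. Chrm3 was at least 2-fold apart with an interval clear of 0 in states 1 and 2, beside 1.96% and 1.83% of all genes there and 2.53% and 2.45% in states 0 and 3. The states are parts of the nuclei on which Chrm3 was picked, so nothing is read from these calls.

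Both sexes showed the direction of the ratios of states 1 and 2, within the nuclei on which Chrm3 was picked. In state 1 the female values were 61.8 and 412 CPM and the male values 41.8 and 607 CPM. In state 2 they were 297 and 818 CPM in the females and 210 and 1849 CPM in the males. In states 0 and 3 the males reached a 2-fold difference, with log2 ratios of 1.12 and 1.05, and the intervals of the females (0.34, -0.14 to 0.85, and 0.18, -0.74 to 1.25) held 0.

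State 2 made up 32.2% (30.8 to 33.6) of lesional fibroblast-like nuclei in the control-labelled library and 25.1% (23.7 to 26.4) in the Cxcl12-cKO-labelled library.

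**Figure D2:**
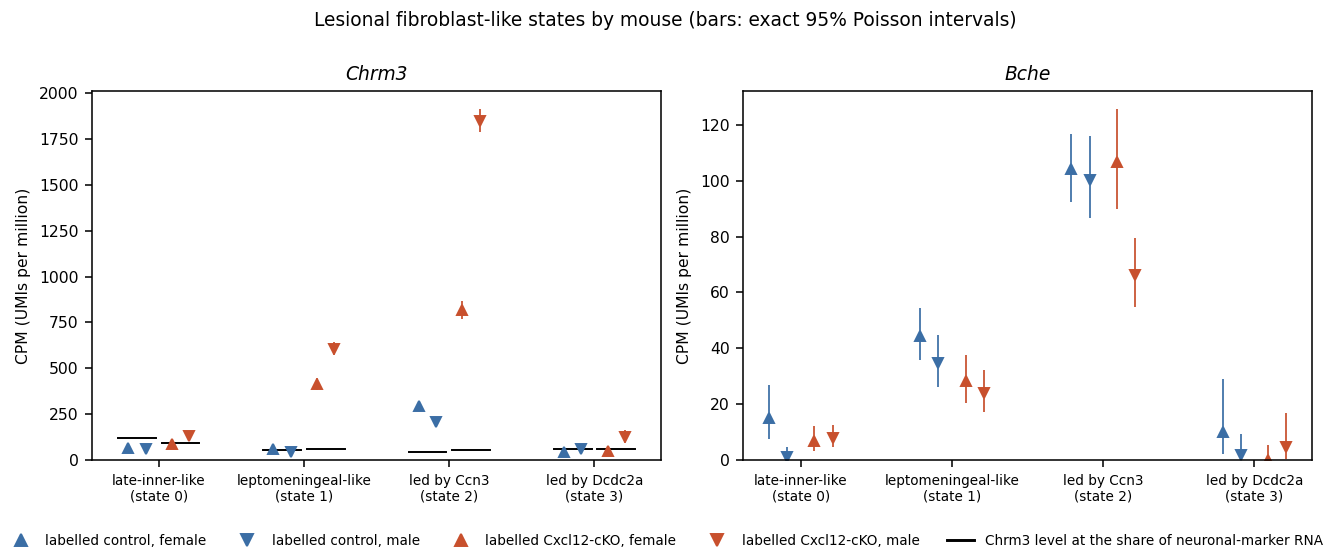
CPM of Chrm3 (left) and Bche (right) in the 4 states of lesional fibroblast-like nuclei, with upward triangles for females, downward triangles for males, blue for the control-labelled library and orange for the Cxcl12-cKO-labelled library. Bars are exact 95% Poisson intervals, and black lines mark the Chrm3 level given by the share of neuronal-marker RNA. Chrm3 of both mice labelled Cxcl12-cKO lies above both mice labelled control in states 1 and 2, and Bche is highest in state 2.

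The few fibroblast-like nuclei of the parenchyma, 51 labelled control and 50 labelled Cxcl12-cKO, held Chrm3 at 174 CPM (124 to 238) and 178 CPM (126 to 245). Their log2 ratio was 0.03 (-0.65 to 0.71). Chrm3 UMIs were found in 11 and 9 of these nuclei, with 12 of the 39 and 10 of the 38 in 1 nucleus each. The interval counts UMIs and not nuclei, so nothing is read from its upper bound lying below the lesional value.

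Reads of genes within Chrm3 could be counted apart from it. In the GENCODE M21 annotation of the GRCm38 genome, another build than that of the files, 6 genes overlap Chrm3 and 3 of them have counts. The sense-intronic Gm47405, at place 7 in the order of ratios, had 41 and 173 UMIs in lesional fibroblast-like nuclei (log2 ratio 2.03), the sense-intronic Gm47404 had 0 and 10, and the antisense Gm26861 had 21 and 43. Of the genes near Chrm3, Ryr2, a calcium release channel gene, had a log2 ratio of 0.26 (0.07 to 0.44), Dip2c one of 0.28 (0.24 to 0.33) and Zmynd11, a chromatin reader gene, one of -0.10 (-0.17 to -0.03). The genes of this paragraph other than Gm47405 were picked after their values were seen.

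The other receptor genes were scarce in lesional fibroblast-like nuclei. Chrm1 had 109 UMIs (7.66 CPM, 6.29 to 9.25) in the control-labelled library and 71 (4.87 CPM, 3.80 to 6.14) in the Cxcl12-cKO-labelled library, a log2 ratio of -0.65 (-1.11 to -0.21). Most of it lay in the leptomeningeal-like state, with 73 and 56 UMIs and a ratio there of -0.30 (-0.83 to 0.22). In the late-inner-like state it had 16 and 9 UMIs, and this ratio of -1.45 (-2.84 to -0.21) passed 2-fold on few counts. Chrm2 had 30 and 33 UMIs, and its ratio of 0.10 (-0.66 to 0.86) held 0. Chrm4 had 2 UMIs in the control-labelled library and 0 in the Cxcl12-cKO-labelled library, where 3 UMIs would be 0.206 CPM. It had only 58 UMIs in all 23489 barcodes. Of the 5 members with at least 20 UMIs only Chrm3, on which the genes were picked, was at least 2-fold apart, beside 1.84% of all genes, and nothing is read from this count.

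Across the 11 named classes and both regions, 43 ratios between the libraries had at least 20 UMIs, and 9 were at least 2-fold with an interval clear of 0. Without lesional fibroblast-like nuclei, where Chrm3 was picked, 8 of 38 ratios were called, all higher in the Cxcl12-cKO-labelled library. Over all genes in the same 15 comparisons, 3.82% of the ratios were called in either direction and 1.9% on that side. Chrm3 gave 5 of the 8. Of its 15 ratios, 11 had an interval above 0 and 0 an interval below 0, beside 7.22% of all gene ratios with an interval above 0, where intervals narrow as a gene's UMIs grow. Among these 11, the Chrm3 ratio of lesional myeloid-like nuclei went from 0.36 to -0.61 and that of lesional oligodendrocyte-like nuclei from 0.97 to -0.082 without the nuclei of highest doublet score. In neurons the ratios were small. Lesional excitatory-neuron-like nuclei held 1273 and 1460 CPM (0.20, 0.15 to 0.25 as a log2 ratio), and those of the parenchyma held 856 and 1014 CPM (0.24, 0.22 to 0.26).

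**Figure D3:**
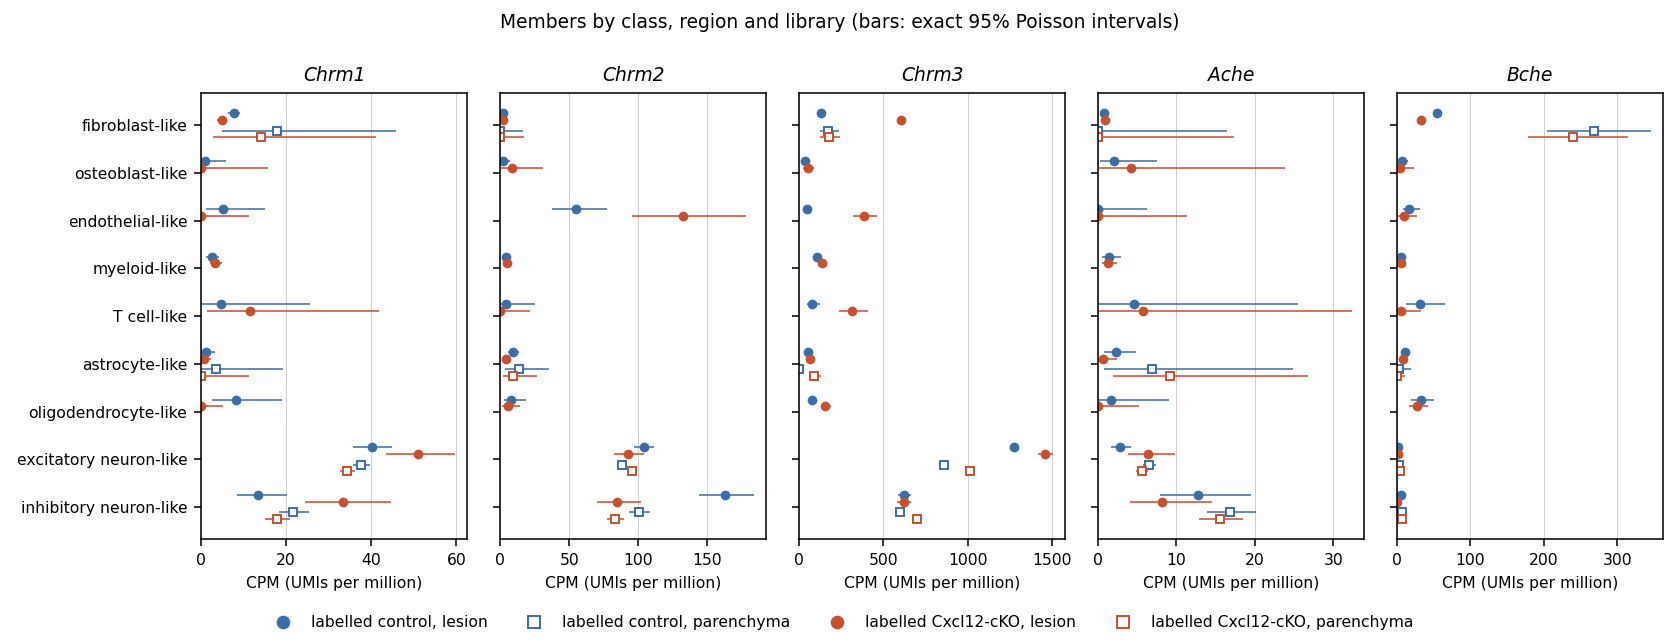
CPM of 5 members by class in each region and library, with filled circles for lesion, open squares for parenchyma, blue for the control-labelled library, orange for the Cxcl12-cKO-labelled library and bars for exact 95% Poisson intervals, for sets of at least 50 nuclei. Chrm3 reaches 1460 CPM in lesional excitatory-neuron-like nuclei, Bche is highest in parenchymal fibroblast-like nuclei, at 268 and 239 CPM, and Chrm2 of lesional endothelial-like nuclei, at 54.7 and 132 CPM, is above that of the other non-neuronal classes. Chrm4 is left out for its few UMIs.

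Several of the larger ratios outside fibroblasts rested on few nuclei. Endothelial-like nuclei of the lesion held 27 and 126 Chrm3 UMIs (log2 ratio 3.05, 2.46 to 3.73), where 1.63% of genes were at least 2-fold higher with an interval clear of 0, but 74 of the 126 were in 1 nucleus. Without the nuclei of highest doublet score the ratio was 0.85. A second clustering of this class gave a subcluster of 82 nuclei in which all 7 fibroblast markers were raised and 32.9% held transcripts of both sexes. It held 12 of the 27 UMIs in 50 lesional nuclei labelled control and 107 of the 126 in 32 labelled Cxcl12-cKO, and the subcluster named endothelial-like held 4 and 4. Dividing nuclei of the lesion, in which fibroblast markers stood at 5988 and 5279 CPM, held 3 Chrm3 UMIs in 1 of 18 nuclei and 59 in 16 of 38 (2.67, 1.26 to 5.20, where 3.95% of genes were at least 2-fold higher by the same rule), and the ratio was 0.19 with classes set by each nucleus's own markers. T-cell-like nuclei held 17 and 54 UMIs in 13 and 23 nuclei (1.98, 1.20 to 2.89, where 3.07% of genes were at least 2-fold higher by that rule), with fibroblast markers at 1358 and 690 CPM and neuronal markers at 110 and 168 CPM.

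Parenchymal glia gave the last of these. Astrocyte-like nuclei held 0 Chrm3 UMIs in 56 nuclei labelled control, where 3 UMIs would be 10.3 CPM. They held 30 UMIs in 59 nuclei labelled Cxcl12-cKO, 22 of them in 1 nucleus, where 2.63% of genes were called higher. With classes set by each nucleus's own markers this ratio turned to -0.057. Oligodendrocyte-like nuclei held 0 UMIs in 27 nuclei labelled control, where 3 UMIs would be 27.7 CPM. They held 38 UMIs in 7 of 32 nuclei labelled Cxcl12-cKO, where 10.6% of genes were called higher. The part of free RNA and of doublets in these counts was not tested.

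Chrm2 lay in a part of the endothelial-like class. The lesional nuclei of this class held 32 UMIs (54.7 CPM) in the control-labelled library and 43 (132 CPM) in the Cxcl12-cKO-labelled library, a log2 ratio of 1.27 (0.58 to 1.98). Although Chrm2 was left out of clustering, it was the leading gene of a subcluster that also held Plvap, a component of the diaphragms of fenestrated endothelium, and the prostaglandin transporter gene Slco2a1. This subcluster reached no marker list. It held 25 of the 32 UMIs in 62 nuclei labelled control (183 CPM, 118 to 270) and 42 of the 43 in 35 nuclei labelled Cxcl12-cKO (448 CPM, 323 to 606). The subclusters named mural-like and endothelial-like held 0 Chrm2 UMIs in the lesion of either library.

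In neurons the receptors divided by subcluster. Chrm3 was highest in 2 unnamed excitatory subclusters, one led by Oprk1, Cntnap3 and Gfra1 with 2051 and 2256 CPM and one led by Fermt1 and Mybpc1 with 2080 and 2066 CPM in the control-labelled and Cxcl12-cKO-labelled libraries. The upper-layer-like subcluster held 1501 and 1646 CPM. Among inhibitory neurons the Sst-like subcluster held 1413 and 1726 CPM and the Vip-led Adarb2-like subcluster 1183 and 1362 CPM, while Pvalb-like nuclei held 369 and 336 CPM and striatal-projection-like nuclei 242 and 234 CPM. The Sst-like and upper-layer-like subclusters changed places between the libraries, whereas Pvalb-like and striatal-projection-like nuclei were low in both.

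Chrm2 followed another order. It stood at 455 and 558 CPM in an excitatory subcluster led by Nxph1, Kcnip1 and Slc17a8, in which Chrm3 stood at 159 and 51.5 CPM. In cholinergic-like nuclei, led by Slc5a7 and Chat, the genes of choline uptake and acetylcholine synthesis, Chrm2 stood at 462 CPM in 55 nuclei labelled control and 266 CPM in 75 labelled Cxcl12-cKO. It was near 0 in the Vip-led subcluster, with 0 and 3 UMIs. Chrm1 stood between 22.6 and 45.5 CPM in the excitatory subclusters with a layer name, between 35.6 and 38.0 CPM in striatal-projection-like nuclei and between 8.87 and 14.7 CPM in Sst-like and Pvalb-like nuclei.

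**Figure D4:**
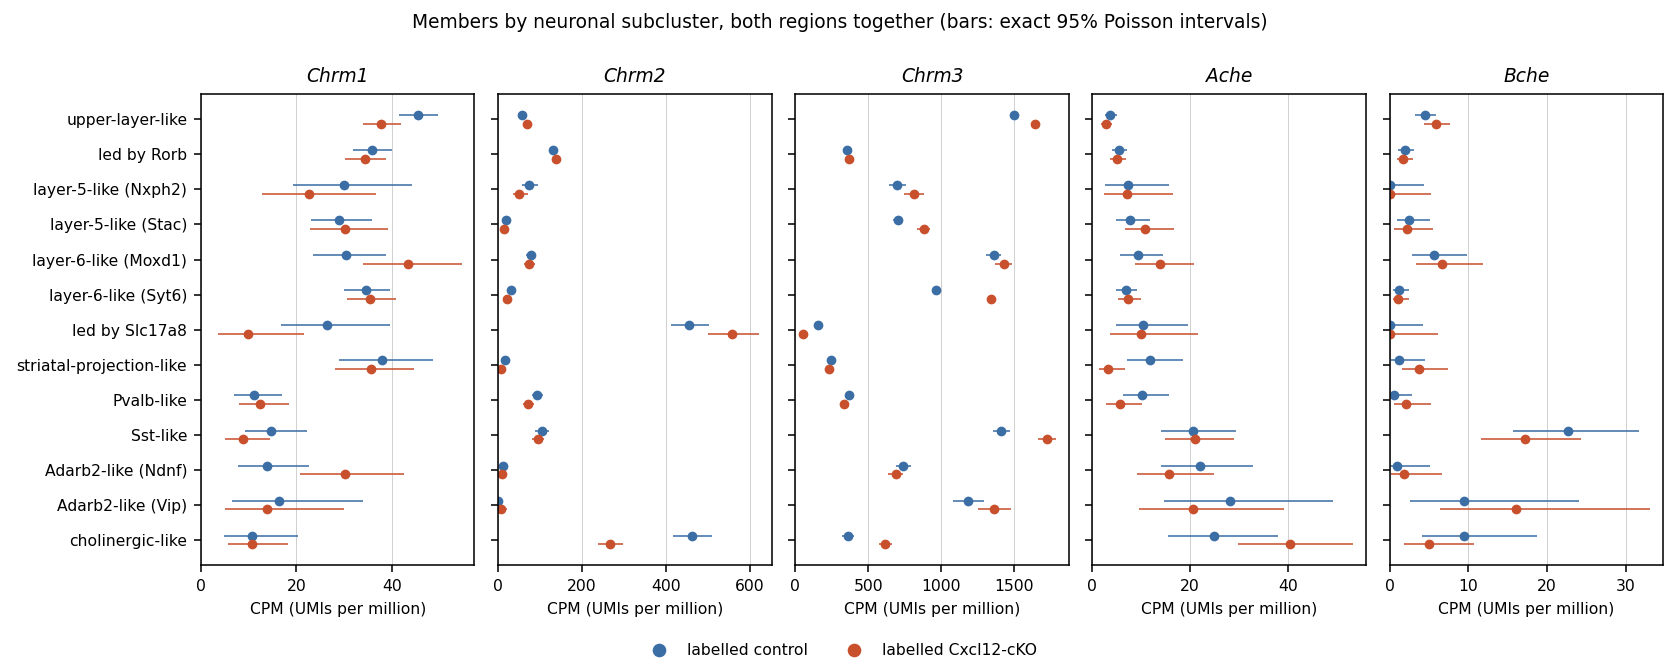
CPM of 5 members in 13 neuronal subclusters, those with a name and the ones led by Rorb and by Slc17a8, with lesion and parenchyma summed, blue points for the control-labelled library, orange points for the Cxcl12-cKO-labelled library and bars for exact 95% Poisson intervals. Among those drawn, which leave out the 2 unnamed subclusters highest in Chrm3, Chrm2 is highest in the one led by Slc17a8 and in cholinergic-like nuclei, and Chrm3 in upper-layer-like, layer-6-like and Sst-like nuclei. Ache reaches 40.4 CPM in cholinergic-like nuclei of the Cxcl12-cKO-labelled library.

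Neurons of the lesion were then compared with those of the parenchyma within each library, which gave the same comparison once per library. Of 10 combinations of a member and a neuronal class with enough UMIs in both libraries, 2 had an interval clear of 0 in the same direction in both, Chrm3 and Bche of excitatory-neuron-like nuclei. Of all genes, 25.6% did so in excitatory-neuron-like nuclei and 14.6% in inhibitory-neuron-like nuclei, so 2 of 10 is near the background. Chrm3 of excitatory-neuron-like nuclei was higher in the lesion by a log2 ratio of 0.57 (0.54 to 0.60) in the control-labelled library and 0.53 (0.48 to 0.57) in the Cxcl12-cKO-labelled library. All 4 mice showed it, with 0.55 and 0.59 in the female and male labelled control and 0.39 and 0.86 in those labelled Cxcl12-cKO. In inhibitory-neuron-like nuclei the Chrm3 ratio was 0.05 (-0.05 to 0.15) and -0.17 (-0.28 to -0.07). Chrm4 was too sparse to compare, with 21 and 15 UMIs in parenchymal excitatory-neuron-like nuclei and 1 and 1 in lesional ones.

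This difference was found within subclusters as well. In 5 excitatory subclusters with at least 20 nuclei of each region, all 9 Chrm3 ratios lay above 0, from 0.24 to 1.08. Their intervals were clear of 0, as for 0.553% of the genes tested in all 9. Intervals narrow as a gene's UMIs grow, and Chrm3 held 87950 UMIs in excitatory-neuron-like nuclei, so this share is not matched for counts. The largest were those of a subcluster led by 1700023F02Rik, Il1rapl2 and Sema3e, with 730 CPM in the parenchyma and 1544 CPM in the lesion labelled control and 817 and 1661 CPM in the Cxcl12-cKO-labelled library. Median depth was lower in the lesion, at 13974 against 17457 UMIs and 12781 against 18410 UMIs, and its part in the difference was not tested. Chrm2 showed no common direction, since 3 of its 9 ratios lay above 0 and 4 below. In the Syt6-led layer-6-like subcluster it was lower in the lesion in both libraries, with 174 UMIs in the parenchyma and 7 in the lesion labelled control (log2 ratio -2.38, -3.81 to -1.40) and 114 and 4 UMIs in the Cxcl12-cKO-labelled library (-1.79, -3.86 to -0.56).

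**Figure D5:**
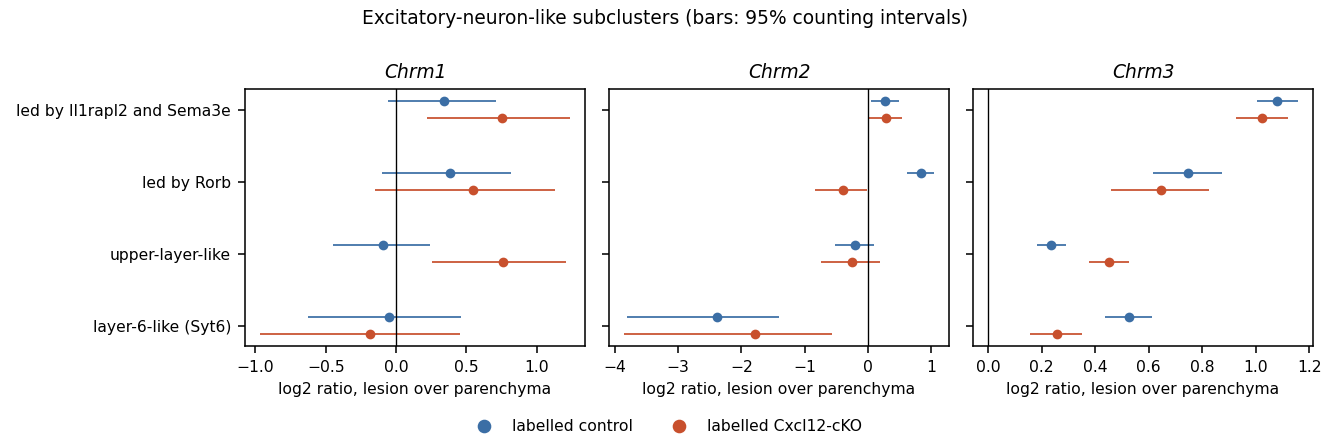
Log2 ratio of lesion over parenchyma for Chrm1, Chrm2 and Chrm3 in 4 excitatory-neuron-like subclusters, blue for the control-labelled library and orange for the Cxcl12-cKO-labelled library, with 95% counting intervals as bars and a line at 0. Every Chrm3 point lies to the right of 0, from 0.24 to 1.08, whereas Chrm2 points lie on both sides.

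In inhibitory-neuron-like nuclei the libraries differed in the lesion. Chrm1 had 22 UMIs (13.4 CPM) in the control-labelled library and 45 (33.4 CPM) in the Cxcl12-cKO-labelled library, a log2 ratio of 1.31 (0.56 to 2.13), where 3.42% of genes were at least 2-fold higher with an interval clear of 0. Chrm2 had 268 UMIs (163 CPM) and 114 (84.6 CPM), a ratio of -0.94 (-1.27 to -0.62), with 46 of the 268 and 56 of the 114 in 1 nucleus each. The parenchymal ratios were -0.28 (-0.62 to 0.06) and -0.27 (-0.43 to -0.12). Each library kept 138 lesional nuclei of this class, but with another makeup. Striatal-projection-like nuclei, which were high in Chrm1 and low in Chrm2, numbered 8 in the control-labelled lesion and 46 in the Cxcl12-cKO-labelled lesion. Cholinergic-like nuclei numbered 8 and 6 and held 114 of the 268 and 62 of the 114 Chrm2 UMIs. The part of this makeup in the ratios was not tested.

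The cholinesterases had separate patterns. Bche lay mainly in fibroblasts, with 1355 of its 2128 UMIs in fibroblast-like nuclei. Lesional fibroblast-like nuclei held 773 UMIs (54.4 CPM, 50.6 to 58.3) in the control-labelled library and 471 (32.3 CPM, 29.5 to 35.4) in the Cxcl12-cKO-labelled library, a log2 ratio of -0.75 (-0.92 to -0.58). The female values were 67.2 and 38.4 CPM and the male values 43.8 and 29.0 CPM, so both mice labelled Cxcl12-cKO lay below both mice labelled control. The difference stayed under 2-fold. State 2, which held most Bche, had 676 of the 1715 lesional fibroblast-like nuclei of the female labelled control. It had 345 of the 1432 of the female labelled Cxcl12-cKO. In the males it had 450 of 1535 and 421 of 1584. The part of this makeup in the Bche ratios was not tested.

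Bche shared state 2 with Chrm3 but not its direction between the libraries. State 2 held 561 and 322 Bche UMIs, at 103 and 79.9 CPM (log2 ratio -0.37, -0.57 to -0.17), and the leptomeningeal-like state 192 and 115 UMIs, at 41.2 and 26.0 CPM (-0.66, -1.01 to -0.32). Within state 2 the females did not differ beyond counting error (104 and 107 CPM) and the males held 100 and 66.4 CPM. In state 2 of the control-labelled library Bche was detected in 17.1% of nuclei with a Chrm3 UMI and 17.5% of those without, and in the Cxcl12-cKO-labelled library in 17.8% and 10.9%. Parenchymal fibroblast-like nuclei held Bche at 268 CPM (205 to 345) and 239 CPM (178 to 314), with a ratio of -0.16 (-0.73 to 0.40) between the libraries. Outside fibroblasts Bche was seen in lesional oligodendrocyte-like nuclei (20 and 19 UMIs, 32.5 and 27.2 CPM) and in Sst-like neurons (22.7 and 17.2 CPM).

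Ache was low in all classes and lay mainly in neurons. It had 12 and 13 UMIs in lesional fibroblast-like nuclei (0.844 and 0.892 CPM). Cholinergic-like nuclei held it at 24.9 and 40.4 CPM from 21 and 49 UMIs, and the Sst-like and both Adarb2-like subclusters between 15.6 and 28.2 CPM, so in the control-labelled library these could not be ranked. In lesional excitatory-neuron-like nuclei it had 21 and 20 UMIs (2.77 and 6.38 CPM, log2 ratio 1.21, 0.25 to 2.16), where 0.847% of genes were at least 2-fold higher in the Cxcl12-cKO-labelled library with an interval clear of 0. Gm42456, on the other strand, overlaps Ache in GENCODE M21, and whether counting used strand is not stated.

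The wider cholinergic pathway was counted in lesional fibroblast-like nuclei as well. A list of 47 further genes held the synthesis and transport genes, the nicotinic receptor subunits, Chrm5, cholinesterase anchors, and the G proteins, phospholipases, inositol trisphosphate receptors, arrestins and potassium channels that act downstream of muscarinic receptors. Of these, 29 had at least 20 UMIs and 0 were at least 2-fold apart with an interval clear of 0, beside 1.84% of all genes, so the count is near the background. With nuclei weighted alike, which rescales the counts, 3 of the 47 were called (Chrna4 and Chrnb2 lower, Plcb2 higher). Before rescaling Chrna4 had 11 and 4 UMIs, below the limit of 20, Chrnb2 had 16 and 9 and Plcb2 had 9 and 19. In females 1 was called (Rgs4, higher, on 7 and 20 UMIs). The median log2 ratio of the 29 was -0.04, against 0.0026 over all genes tested. Gnaq, the Gq subunit gene, had 6983 and 6958 UMIs (-0.04, -0.09 to 0.01), and Plcb1, a phospholipase C gene, 5706 and 6202 (0.08, 0.03 to 0.14). The genes of acetylcholine supply were near absent, with 0 UMIs of Chat and of Slc18a3 in both libraries.

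The genes most like Chrm3 over the classes did not share its difference. Over 26 sums of class, region and library with at least 50 nuclei, which share depth and libraries, Dnajc6, a clathrin uncoating cofactor gene, had the highest Pearson correlation with Chrm3 (r = 0.88), followed by Gm10419, C78859, Mtus2 and Frmpd4, a postsynaptic scaffold gene, at 0.81 to 0.82. Their log2 ratios in lesional fibroblast-like nuclei were between -0.17 and 0.23, against 2.19 for Chrm3.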

How the data were processed

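Single-nucleus RNA was counted in 1 library per genotype. The authors aligned reads to GRCm39 with Cell Ranger 9.0.0 and assigned barcodes to a region by tag, and the deposited values are raw UMI counts per gene and nucleus. Whether intronic reads were counted is not stated in the sources at hand. The members and lists were chosen with earlier results of these data known.

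Nuclei outside the central range of UMIs or genes (2.5% cut at either end) or in the top 2.5% by mitochondrial share were removed. Nuclei were clustered in scanpy 1.11.5 with 3000 variable genes, 30 components, 20 neighbours and Leiden resolution 0.25, without the members, the pathway list, Cxcl12, Cxcr4, Ackr3, sex-linked and mitochondrial genes. Fibroblast, neuron and endothelial classes were clustered again with 2000 variable genes. A cluster took the name of the marker list with the highest mean log2 fold (at least 0.5) if at least 3 markers were up and seen in at least 10% of its nuclei. UMIs were summed per set and scaled to the set's total as CPM, and 0.5 was added to each sum for log2 ratios. Mice were told apart by Xist and by Ddx3y, Uty, Kdm5d and Eif2s3y. Scrublet called only 3 and 20 doublets, too few to have worked, and 1 alternative dropped the top 10% of its scores. Code was tested on simulated data. Named genes were the 6 members, pathway genes with at least 50 UMIs and a log2 ratio of at least 0.5 in size in the same direction in both sexes (0 met this), the 5 genes most correlated with Chrm3, and its neighbours in the order of ratios. Others are named as markers, leading genes, or as stated.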

Additional observations from a re-analysis of the deposited data

Results flagged for a closer look

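Chrm3 and Chrm1 gave 3 patterns with effects of opposite direction in 2 groups, each beyond counting error, and none of the differences between groups was tested. In lesional fibroblast-like nuclei Chrm3 was lower in the male than in the female mouse of the control-labelled library (log2 ratio -0.73, -0.88 to -0.58) and higher in the Cxcl12-cKO-labelled library (1.03, 0.95 to 1.11). Each sex was 1 mouse in each library. Chrm1 of excitatory-neuron-like nuclei was higher in the Cxcl12-cKO-labelled library in the lesion (0.35, 0.07 to 0.63) and lower in the parenchyma (-0.13, -0.24 to -0.02). In inhibitory-neuron-like nuclei Chrm1 was lower in the lesion than in the parenchyma in the control-labelled library (-0.66, -1.41 to -0.04) and higher in the Cxcl12-cKO-labelled library (0.92, 0.40 to 1.40), on 22 and 45 lesional UMIs.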

How the results depend on the processing

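No paired analysis was possible because each genotype gave 1 library and no replicate numbers pair the mice. Females and males were set side by side only by sex transcripts, with no test. Of the 6 main results under their alternatives, 40 values stayed alike and 20 moved. The log2 ratio of Chrm3 in lesional fibroblast-like nuclei (2.19) was 2.12 without the filter, 1.91 with classes set by each nucleus's own markers, 2.33 when thinned, 1.11 in females, 2.86 in males and, in an alternative chosen after seeing the data, 2.498 with states weighted alike. Its difference in share (19.1 points) was 16.0 with own markers, 15.8 when thinned, 8.78 in females and 26.7 in males. The count of members called by class (9 of 43) was 18 of 64 with own markers, 4 of 23 when thinned and 3 of 30 in females. The count of states in which Chrm3 was called (2 of 4) was 4 in males and 4 of 7 at a finer clustering. The count of neuronal combinations (2 of 10) was 4 without high doublet scores, 1 of 5 when thinned and 1 of 9 in males. The pathway count (0) was 3 with nuclei weighted alike (Chrna4, Chrnb2, Plcb2) and 1 in females (Rgs4). Thinning and sex leave fewer UMIs. The cause was not tested for the rest. Of single values, 468 stayed alike, 94 moved and 11 turned direction. The turned log2 ratios were, for Chrm3 of lesional myeloid-like nuclei, -0.61 without high doublet scores, -0.058 weighted alike, -0.11 thinned and -0.13 in females. Chrm3 turned to -0.082 in lesional oligodendrocyte-like nuclei without high doublet scores, -0.057 in parenchymal astrocyte-like nuclei with own markers, -0.039 in parenchymal inhibitory neurons of females, and -3.41 in lesional excitatory neurons without nuclei holding neuronal RNA, which removes nearly all of them. Chrm2 of parenchymal excitatory neurons was -0.0090 when thinned. In males labelled Cxcl12-cKO the lesion over parenchyma was 0.087 for Bche in excitatory and 0.19 for Chrm3 in inhibitory neurons. Depth limits Chrm4 and Ache. Outside neurons Chrm4 had too few counts to compare, and Ache reached 20 UMIs only in lesional fibroblast-like nuclei (log2 ratio 0.08, -1.17 to 1.34).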
